A study of Mus musculus with 12 samples.

Results

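The genes described here are 34 genes of macrophages and other myeloid cells, measured in fetal mouse testes with and without Dmrt1. They were chosen by name, as all probe sets that the platform annotation assigns to 1 of the listed genes and to no other, and they make up 34 of the 18193 genes and 52 of the 45101 probe sets of the array. Of these, 26 are genes of macrophages or of myeloid cells in general (44 probe sets) and 8 are neutrophil granule genes (8 probe sets), and the sets are reported separately. The study profiled total RNA of testes, of age E15.5 by their labels, on 12 Affymetrix arrays, 3 in each of 4 groups. The groups were 129Sv wild type, 129Sv Dmrt1 knockout, B6 wild type and B6 Dmrt1 knockout, with no further treatment named. The series text calls the removal of Dmrt1 conditional. Dmrt1 is a transcription factor gene of germ cells and Sertoli cells, and the sources used here name neither the cells in which it was removed nor what drove the removal. The labels' growth protocol also names a different age from the age label, which was followed. The labels do not say whether each array is a separate animal, so p-values measure only the spread among these arrays, which may be technical.

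Macrophages enter the fetal testis from the yolk sac and from fetal monocytes, lie in the interstitium close to blood vessels, and remove dying cells and debris as the cords form. They depend on CSF1R, the receptor of the growth factors CSF1 and IL34, and on the transcription factor PU.1, which Spi1 encodes. They carry the receptors CX3CR1 and MRC1, the signalling adaptors TYROBP and FCER1G, Fc receptors that bind antibody, and they make the C1q complement proteins and lysosomal enzymes. Neutrophils form from granulocyte precursors in the fetal liver and bone marrow and reach a tissue through the blood. Mpo and Elane belong to the early, azurophilic granules and are transcribed in promyelocytes. Ltf, Lcn2, Camp and Ngp belong to the later, secondary granules and depend on C/EBP transcription factors, and S100a8 and S100a9 encode the most abundant cytosolic proteins of the mature neutrophil.

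The bases before the transcription start of 4 granule genes and of 1 macrophage gene are shown because these granule genes were higher in 129Sv wild type than in B6 wild type and Laptm5 had the lowest adjusted p of the macrophage genes. Each line gives the 250 bases upstream of the start site, 5′ to 3′ on the gene's strand, from RefSeq on GRCm38.p6. In the granule genes, capitals mark matches to the C/EBP motif TTGCNNAA or its reverse complement TTNNGCAA. In Laptm5 they mark the PU.1 motif GAGGAAG or its reverse complement CTTCCTC. Ngp (chr9:110419558-110419807, plus strand) holds 2 C/EBP matches, Ltf (chr9:111019042-111019291, plus strand) 1, Lcn2 (chr2:32387740-32387989, minus strand) 1 and Camp (chr9:109849457-109849706, minus strand) 0. Laptm5 (chr4:130913066-130913315, plus strand) holds 1 PU.1 match.
Ngp: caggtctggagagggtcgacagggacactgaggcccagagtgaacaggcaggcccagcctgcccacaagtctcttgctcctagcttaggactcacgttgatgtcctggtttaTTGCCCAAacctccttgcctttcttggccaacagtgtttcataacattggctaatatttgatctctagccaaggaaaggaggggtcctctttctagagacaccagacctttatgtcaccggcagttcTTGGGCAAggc
Ltf: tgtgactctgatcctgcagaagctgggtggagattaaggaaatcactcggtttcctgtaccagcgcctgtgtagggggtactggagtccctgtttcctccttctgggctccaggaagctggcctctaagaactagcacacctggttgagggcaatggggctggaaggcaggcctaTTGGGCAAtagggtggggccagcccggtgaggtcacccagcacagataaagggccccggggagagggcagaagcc
Lcn2: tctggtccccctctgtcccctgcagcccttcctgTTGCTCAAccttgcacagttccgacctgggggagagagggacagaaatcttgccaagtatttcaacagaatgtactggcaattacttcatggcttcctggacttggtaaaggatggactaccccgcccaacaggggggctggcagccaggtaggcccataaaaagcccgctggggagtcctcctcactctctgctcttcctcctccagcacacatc
Camp: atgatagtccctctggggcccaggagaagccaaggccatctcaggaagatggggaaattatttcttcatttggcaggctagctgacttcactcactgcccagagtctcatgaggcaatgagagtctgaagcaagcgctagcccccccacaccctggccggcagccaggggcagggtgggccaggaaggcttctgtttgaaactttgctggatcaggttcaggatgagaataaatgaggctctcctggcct
Laptm5: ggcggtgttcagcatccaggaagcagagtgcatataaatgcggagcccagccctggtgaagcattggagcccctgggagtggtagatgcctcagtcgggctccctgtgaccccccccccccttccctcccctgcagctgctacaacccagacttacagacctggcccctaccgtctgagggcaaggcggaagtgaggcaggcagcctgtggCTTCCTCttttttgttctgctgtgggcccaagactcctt

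Start sites were found in the table for 27 of the 34 genes, with 30 windows. The C/EBP motif, searched on both strands, lay in 4 of 8 granule windows (Ngp, Ltf, Lcn2 and S100a9), in 4 of 22 macrophage windows (18.2%) and in 9.56% of all 32851 windows of this length. The PU.1 motif lay in 4 of 8 granule windows (S100a8, Lcn2, Mpo and Elane), in 8 of 22 macrophage windows (36.4%) and in 10.6% of all windows. The DMRT1 motif ACATTGT or ACAATGT lay in 0 of the 30 windows and in 2.56% of all windows. Among the macrophage genes 3 had 2 windows each, and those of Ptprc and Fcgr3 overlap. The counts describe letters in a short window and say nothing about binding.

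Values are intensities on a linear scale, and an intensity of 16, a log2 value of 4, was taken as the lower limit of useful signal. A gene was represented by its probe set with the highest mean and was tested where at least 3 arrays reached 16, which 29 of the 34 genes and 12726 of all genes did. A fold is written as at least where an array of the lower group was under 16 and was set to 16. Differences are log2 differences with standard errors from limma (n = 3 arrays a group), and p-values were adjusted over all 12726 genes with 0.05 as the threshold. Array medians were 17.3 to 19 and arrays of a group correlated with r of 0.983 to 0.998 over probe sets. Dmrt1 read 795 to 1183 in wild types, 145 to 181 in 129Sv knockouts and 64.0 to 86.4 in B6 knockouts. The 3′ signal of Actb over its 5′ signal, which is higher in degraded RNA, was largest on B6 knockout replicate 3 (6.30), followed by 129Sv knockout replicate 1 (5.24) and 129Sv wild-type replicate 2 (3.91), and was 1.99 to 2.79 elsewhere. The title of B6 wild-type replicate 3 lacks the numbers that all other titles carry before their strain codes. The last number of the titles is lower on every B6 array than on every 129Sv array. Within B6 it is lower on every knockout than on every wild type. Its meaning is not stated, so it cannot be told apart from strain or, in B6, from genotype.

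Among the macrophage genes, the signal of the defining markers was present but uneven. Of the 26, 21 passed the filter and 5 did not, among them the master regulator. Spi1 read 11.1, 13.1 and 11.00 in 129Sv wild type, 9.33, 11.8 and 10.1 in 129Sv knockout, 11.5, 12.7 and 9.29 in B6 wild type and 10.3, 11.6 and 15.6 in B6 knockout. No array reached 16, so no level of Spi1 could be compared. The integrin chains Itgam (3.38 to 4.70) and Itgb2 (6.63 to 10.45) and the lipopolysaccharide co-receptor Cd14 (5.51 to 14.1) also stayed under 16 on all 12 arrays, and Cd48, a surface protein of leukocytes, exceeded it on 1 array (6.40 to 19.1). Among the 21 tested genes, Csf1r, Mrc1, Tyrobp, Fcer1g, the 3 C1q genes and all others except Ptprc, Cx3cr1, Aif1, Fcgr1 and Fcgr2b exceeded 16 on every array. In such whole-testis RNA, fewer macrophages and less RNA per macrophage cannot be told apart. Whether the probes match the sequences of both strains equally was not tested.

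In testes without Dmrt1, macrophage genes were lower in 129Sv than in B6. Of 21 tested genes, 10 were lower in 129Sv knockouts and 1, Fcgr2b, which lay under 16 in both knockout groups, was higher, whereas limma called 13.8% of all genes lower and 20.3% higher in the same comparison. The median difference, 129Sv minus B6, was -0.73 on the log2 scale against 0.028 over all genes, and 18 of the 21 differences were negative. The groups did not overlap for 12 genes that were lower in 129Sv, against 18.8% of all genes. In wild-type testes 20 of 21 differences were negative as well, with a median of -0.52 against 0.063 over all genes, but limma called 0 of the 21. Over all genes limma called 10.9% higher and 5.19% lower there, at the adjusted threshold. At an unadjusted p under 0.05, 6 of the 21 were lower and 1 was higher. The share of all genes at an unadjusted p is not given, so these counts cannot be set against it. The wild types did not overlap for 2 genes that were lower in 129Sv, Mrc1 and Fcer1g, against 14.1% of all genes, and for 1 that was higher, Fcgr2b, against 26.6%.

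**Figure D1:**
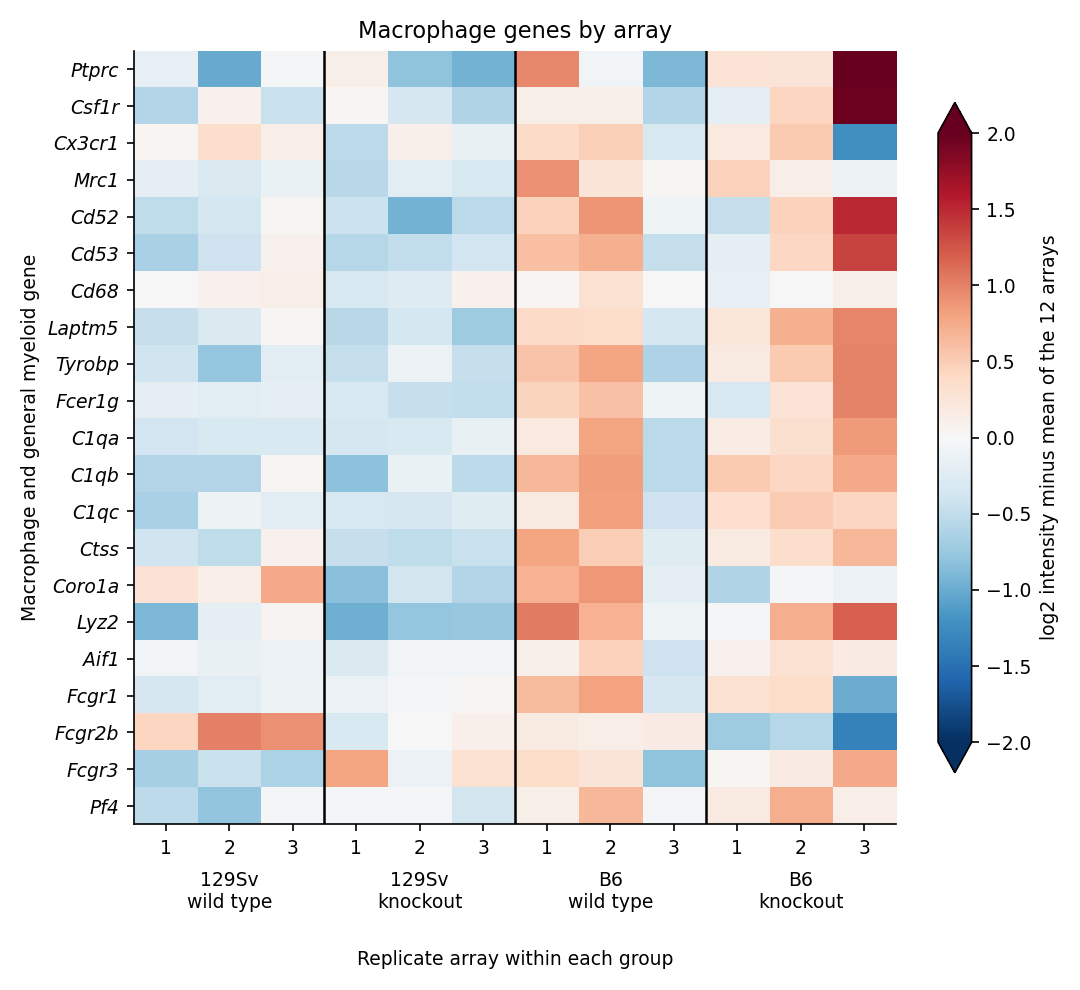
Log2 intensity of the 21 tested macrophage genes (rows) on the 12 arrays (columns), each gene centred on its own mean over the 12 arrays; red is above and blue below that mean, and colours end at 2 log2 units. B6 wild-type replicate 3 is the lowest array of its group for 20 of 21 genes, and Csf1r and Ptprc are highest in B6 knockout replicate 3.

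Among the members with lysosomal products, Laptm5, Lyz2 and Ctss were lower in 129Sv knockouts than in B6 knockouts and Cd68 did not pass. Of all genes 13.8% were lower there. These 4 genes were grouped here for description only and were not a list fixed beforehand. Laptm5, which encodes a lysosomal membrane protein of blood cells, read 769, 863 and 1072 in 129Sv wild type, 717, 826 and 645 in 129Sv knockout, 1382, 1364 and 825 in B6 wild type and 1240.3, 1731 and 2080.4 in B6 knockout. All 129Sv knockouts were below all B6 knockouts, and the wild types overlapped because B6 wild-type replicate 3 lay among the 129Sv arrays. Laptm5 was 2.27-fold lower in 129Sv knockouts (-1.18 ± 0.22, adjusted p = 0.000849) and differed by -0.38 ± 0.22 in wild type (adjusted p = 0.257). Lyz2, the lysozyme gene of macrophages and granulocytes, read 309, 512 and 601 in 129Sv wild type, 294, 338 and 340.2 in 129Sv knockout, 1188, 934 and 545 in B6 wild type and 571, 952 and 1322 in B6 knockout. The knockouts again did not overlap, and Lyz2 was 2.77-fold lower in 129Sv (-1.47 ± 0.31, adjusted p = 0.00265). Its wild-type difference of -0.89 ± 0.31 did not pass (adjusted p = 0.0682). The sequence of Lyz2 is close to that of Lyz1, and binding of Lyz1 to this probe set was not tested. Ctss, which encodes the lysosomal protease cathepsin S, read 239, 221 and 335 in 129Sv wild type, 228, 220.4 and 230.4 in 129Sv knockout, 541, 440.2 and 266 in B6 wild type and 358, 403 and 501 in B6 knockout. It was 1.84-fold lower in 129Sv knockouts, without overlap (-0.88 ± 0.23, adjusted p = 0.0101). Cd68, a lysosomal glycoprotein often used to stain macrophages, stayed between 25.7 and 39.7 on all arrays and did not pass in any comparison.

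The C1q genes, whose products start the classical complement pathway and tag cells for uptake, went the same way. C1qb read 877, 881 and 1342 in 129Sv wild type, 749.9, 1203 and 920.2 in 129Sv knockout, 2094, 2369 and 908 in B6 wild type and 1898, 1758 and 2237 in B6 knockout. Every 129Sv knockout lay under every B6 knockout, a 2.08-fold difference (-1.06 ± 0.29, adjusted p = 0.0119). C1qc read 26.7, 38.7 and 36.1 in 129Sv wild type, 33.4, 33.1 and 35.1 in 129Sv knockout, 47.3, 73.3 and 31.4 in B6 wild type and 52.9, 59.3 and 56.4 in B6 knockout and was 1.66-fold lower in 129Sv knockouts (-0.73 ± 0.26, adjusted p = 0.0419). C1qa read 20.4, 21.6 and 21.6 in 129Sv wild type, 21.1, 21.4 and 23.8 in 129Sv knockout, 30.5, 45.9 and 18.3 in B6 wild type and 29.5, 33.1 and 47.8 in B6 knockout. Its knockouts also did not overlap, but the difference of -0.70 ± 0.28 did not pass (adjusted p = 0.0685). The array holds 3 probe sets of C1qb above the filter, and all 3 were lower in 129Sv knockouts when limma was fitted to 21900 probe sets. In that fit 12 macrophage probe sets were lower, of 28 tested, against 12.2% of all probe sets. They included the 3 of C1qb and a second probe set of Laptm5, so that some genes are counted more than once. They also included a probe set of Csf1r, whose other probe sets did not pass. Ptprc (adjusted p = 0.0543) and Fcer1g (adjusted p = 0.0504), which were called in the fit of genes, did not pass in that fit.

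The adaptor genes Tyrobp and Fcer1g and the surface protein genes Cd52, Cd53 and Ptprc were lower in 129Sv knockouts, whereas the surface receptor genes Csf1r, Mrc1, Cx3cr1, Fcgr1 and Fcgr3 did not pass. Tyrobp, the adaptor of activating receptors, read 167, 129 and 190.4 in 129Sv wild type, 159, 203 and 160.4 in 129Sv knockout, 328, 379 and 144 in B6 wild type and 249, 316 and 439.7 in B6 knockout. It was 1.88-fold lower in 129Sv knockouts, whose arrays lay below those of B6 (-0.91 ± 0.31, adjusted p = 0.0331). Fcer1g, the shared chain of Fc receptors, read 177, 172 and 175 in 129Sv wild type, 163, 147 and 143 in 129Sv knockout, 276, 301 and 189 in B6 wild type and 161, 243 and 402 in B6 knockout. Its 129Sv values were close to each other, its B6 knockouts ranged over more than the whole 129Sv spread, and the knockout groups overlapped at their edges. The difference was 1.67-fold (-0.74 ± 0.26, adjusted p = 0.0419). Cd52 (2.20-fold, -1.14 ± 0.38, adjusted p = 0.0322) and Cd53 (2.01-fold, -1.005 ± 0.35, adjusted p = 0.0388), surface proteins of leukocytes in general, also passed. Cd52 read 66.02, 46.4 and 61.2 in 129Sv knockouts and 64.3, 122 and 254 in B6 knockouts, and Cd53 read 121, 128 and 138 and 159, 238 and 458. For both genes B6 knockout replicate 3 was the highest of the 12 arrays. Without that array neither passed, at -0.63 (adjusted p = 0.131) for Cd52 and -0.59 (adjusted p = 0.162) for Cd53, and Fcer1g differed by -0.40 (adjusted p = 0.172). With 1 array left out at a time, Cd52 passed in 8 of 12 fits, Cd53 in 7 and Fcer1g in 3.

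**Figure D2:**
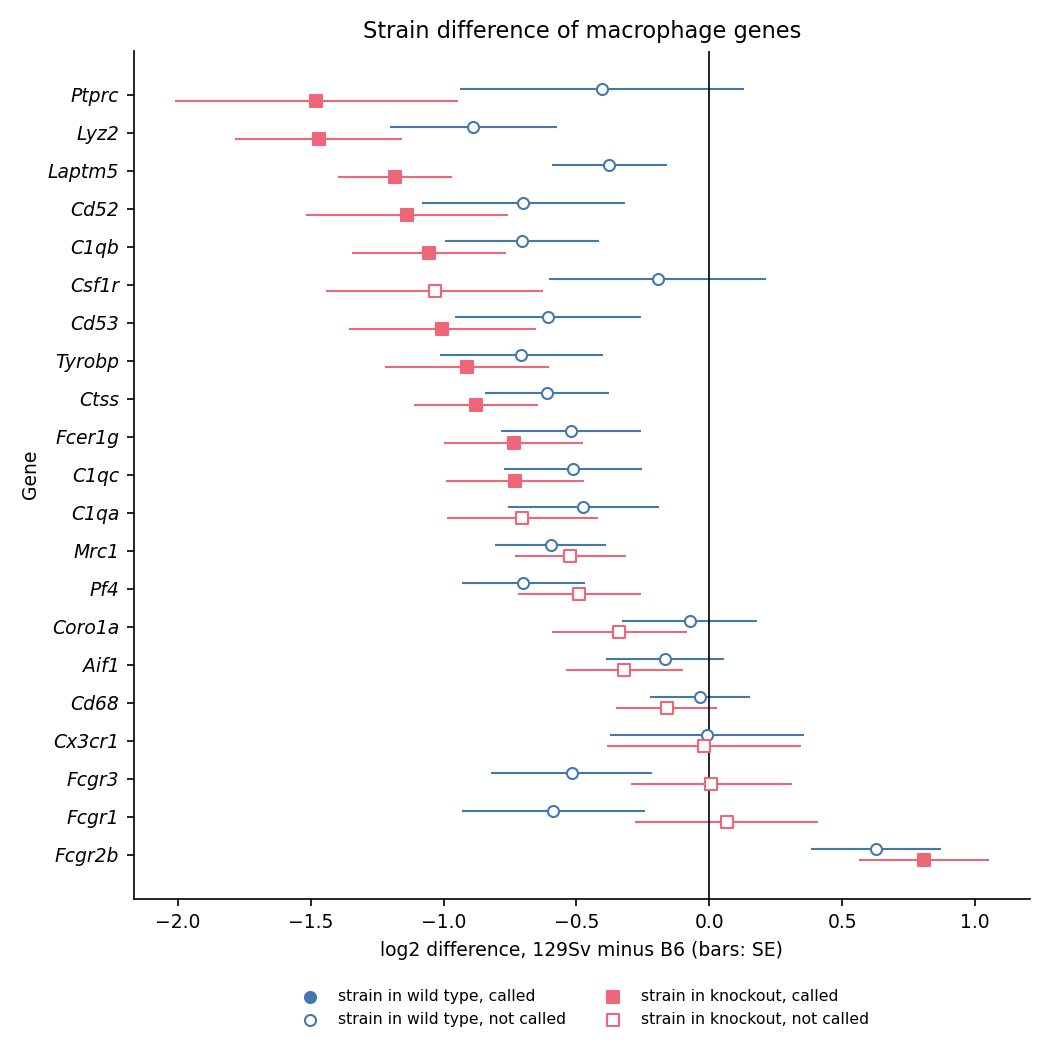
Log2 difference 129Sv minus B6 of the 21 tested macrophage genes (x axis, bars are standard errors) in wild type (circles) and knockout (squares); filled symbols passed limma's adjusted p threshold of 0.05. In knockout 10 genes pass on the left of 0 and Fcgr2b on the right, and in wild type no symbol is filled although 20 of 21 lie left of 0.

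The receptors that define macrophages were less regular. Csf1r read 86.2, 137 and 94.4 in 129Sv wild type, 133, 102 and 84.7 in 129Sv knockout, 139, 139 and 86.1 in B6 wild type and 113, 174 and 504 in B6 knockout. Its strain difference in knockouts of -1.03 ± 0.41 did not pass (adjusted p = 0.0634), and the groups overlapped. Ptprc, the pan-leukocyte gene CD45, read 21.4, 11.96 and 23.8 in 129Sv wild type, 26.2, 13.9 and 12.6 in 129Sv knockout, 47.03, 23.2 and 12.9 in B6 wild type and 29.3, 28.96 and 117 in B6 knockout. It was at least 2.46-fold lower in 129Sv knockouts (-1.48 ± 0.53, adjusted p = 0.0444), and 117 was the highest of its 12 values. Without that array, B6 knockout replicate 3, the difference was -0.81 (adjusted p = 0.19), and it passed in 6 of the 12 fits that left out 1 array. Mrc1, the mannose receptor of tissue macrophages, read 279, 259 and 286 in 129Sv wild type, 215, 271 and 253 in 129Sv knockout, 591, 376 and 321 in B6 wild type and 432, 345 and 294 in B6 knockout. In both genotypes all 129Sv arrays were below all B6 arrays, by -0.60 ± 0.21 in wild type and -0.52 ± 0.21 in knockout, and neither passed (adjusted p = 0.0649 and 0.0658). Pf4, a chemokine gene that fetal macrophages share with platelets, read 213, 177 and 301 in 129Sv wild type, 298, 302 and 238 in 129Sv knockout, 332, 488 and 300.3 in B6 wild type and 349, 506 and 336 in B6 knockout and did not pass (adjusted p = 0.0523 in wild type and 0.116 in knockout). Cx3cr1, the fractalkine receptor, read 31.3, 38.8 and 33.2 in 129Sv wild type, 21.04, 32.7 and 27.4 in 129Sv knockout, 39.8, 42.5 and 24.4 in B6 wild type and 34.6, 43.6 and 13.03 in B6 knockout. It differed by -0.01 and -0.02 between strains, with B6 knockout replicate 3 the lowest of all arrays. Aif1, a calcium-binding protein gene of macrophages, and the Fc receptor gene Fcgr1 did not pass in any comparison, at 14.9 to 27.3 and 9.30 to 32.3.

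The counts of the strain comparisons changed when single arrays were left out. Such a fit has fewer arrays for every gene, and the share of all genes called in it is not given here. These counts therefore do not set the members apart from other genes. B6 wild-type replicate 3 was lowest in its group for 20 of 21 macrophage genes, compared with 34.3% of all genes, and without it 9 of the 21 were lower in 129Sv wild type. Without B6 knockout replicate 3, the highest array of its group for 13 of 21 (47.3% of all genes), 4 passed in wild type, 3 of them lower. In the knockout comparison the 11 calls became 4 to 7 when any one of 129Sv wild-type replicate 3 (7), 129Sv knockout replicate 1 (6), 2 (5) or 3 (4), or B6 knockout replicate 2 (6) or 3 (5) was left out. Without the 2 arrays of the highest Actb ratio, namely replicate 3 of the B6 knockouts and replicate 1 of the 129Sv knockouts, 3 passed in knockout and 4 in wild type, and with the ratio as a covariate 13 passed in knockout and 2 in wild type. Laptm5, Lyz2 and Ctss were lower in 129Sv knockouts whichever array was left out. Without B6 knockout replicate 3 the median difference was -0.59, and it ranged from -0.85 to -0.59 over the 12 arrays left out in turn.

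B6 knockout replicate 3 stood apart for some macrophage genes and not for others. Csf1r read 504 there and 84.7 to 174 on the other 11 arrays, and its other probe sets read 397 against 57.8 to 148 and 127 against 20.2 to 34.4. Cd52 and Cd53 were also highest there, while Cx3cr1 (13.0), Fcgr1 (9.30) and Fcgr2b (5.13) were lowest. It was the highest of the 12 arrays for 9 of 21 macrophage genes and the lowest for 3, compared with 24% and 18.9% of all tested genes. The spread within groups was larger for macrophage genes than for most genes. The pooled SD on the log2 scale had a median of 0.383 over the 21 genes and 0.209 over all genes, from 0.158 for Cd68 to 0.842 for Ptprc.

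Knockout was next compared with wild type within each strain. With 3 arrays a group and the wide spread of macrophage genes, a gene that did not pass may still differ. In 129Sv limma called 2 of the 21 lower (4.24% of all genes) and 0 higher (4.07%), with a median of -0.15 against -0.0062 over all genes. In B6 it called 1 lower (5.45% of all) and 0 higher (2.45%), with a median of 0.096 against 0.032, and without B6 wild-type replicate 3 the median was -0.17. At an unadjusted p under 0.05, 1 gene was higher in each strain, Fcgr3 in 129Sv and Laptm5 in B6, and 2 were lower. The share of all genes at that p is not given. In 129Sv the groups did not overlap for 3 genes that were lower in the knockout, Coro1a, Fcgr2b and Fcer1g, against 14.6% of all genes, and for 1 that was higher, Fcgr3, against 14.2%. Averaged over the strains, limma called Coro1a and Fcgr2b lower, where 7.88% of all genes were, and 0 higher against 5.62%. The call in B6 is Fcgr2b, which passed the filter only through the 129Sv wild types, the group where it is high, so that its calls are given as a description and these counts support nothing.

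Coro1a encodes coronin 1A, an actin-binding protein of leukocytes that is abundant in lymphocytes as well as in macrophages. It read 472, 423 and 651 in 129Sv wild type, 216, 300.0 and 259 in 129Sv knockout, 627, 705 and 342 in B6 wild type and 254, 374 and 355 in B6 knockout. In 129Sv all knockouts were below all wild types, and in B6 the groups overlapped through wild-type replicate 3. Coro1a fell 1.98-fold in 129Sv (-0.99 ± 0.25, adjusted p = 0.0247) and differed by -0.72 ± 0.25 in B6 (adjusted p = 0.0985). The average over strains was -0.85 ± 0.18, adjusted p = 0.00457, and it passed whichever array was left out. Its other probe set above the filter read 537, 387 and 624 in 129Sv wild type, 197, 267 and 262 in 129Sv knockout, 683, 666 and 349 in B6 wild type and 229, 358 and 235 in B6 knockout. In the fit of all probe sets that one was lower in both strains, by -1.08 ± 0.27 in 129Sv (adjusted p = 0.0301) and -1.01 ± 0.27 in B6 (adjusted p = 0.0448). There 2 of 28 macrophage probe sets were lower in each strain, against 2.74% of all probe sets in 129Sv and 3.78% in B6. In 129Sv both were probe sets of Coro1a, so that a single gene is counted again. In B6 they belonged to Coro1a and Fcgr2b. Fcgr2b did not pass in 129Sv in that fit (-0.85 ± 0.24, adjusted p = 0.0545).

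Fcgr2b encodes the inhibitory Fc receptor, which B cells carry as well as macrophages. It read 17.5, 26.4 and 24.7 in 129Sv wild type, 10.6, 13.2 and 14.01 in 129Sv knockout, 14.8, 14.3 and 14.6 in B6 wild type and 8.02, 8.83 and 5.13 in B6 knockout. The 3 values of 16 or more were the 129Sv wild types. It was tested only because of that group, so a lower value elsewhere was built into the choice. Its 129Sv difference was -0.85 ± 0.25 (adjusted p = 0.0446), at least 1.41-fold lower in knockout, and its B6 difference of -1.03 ± 0.25 passed (adjusted p = 0.0186) with both B6 groups under 16, where no fold is given. With values under 16 set to 16, the 129Sv difference was -0.49 (adjusted p = 0.0635) and the average over strains -0.25 (adjusted p = 0.157), and neither passed. No fold is given either for its difference between the knockout groups (0.81 ± 0.25, adjusted p = 0.0202). Fcgr3, which encodes an activating Fc receptor, read 63.4, 73.3 and 64.7 in 129Sv wild type, 174, 92.5 and 123 in 129Sv knockout, 129, 119.8 and 57.3 in B6 wild type and 103, 112 and 169 in B6 knockout. In 129Sv all knockouts were above all wild types, but the 1.88-fold difference did not pass (0.91 ± 0.30, adjusted p = 0.0833). The highest 129Sv knockout, replicate 1, was an array of high Actb ratio, and so was the highest B6 knockout, replicate 3; the part of the ratio in Fcgr3 was not tested.

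**Figure D3:**
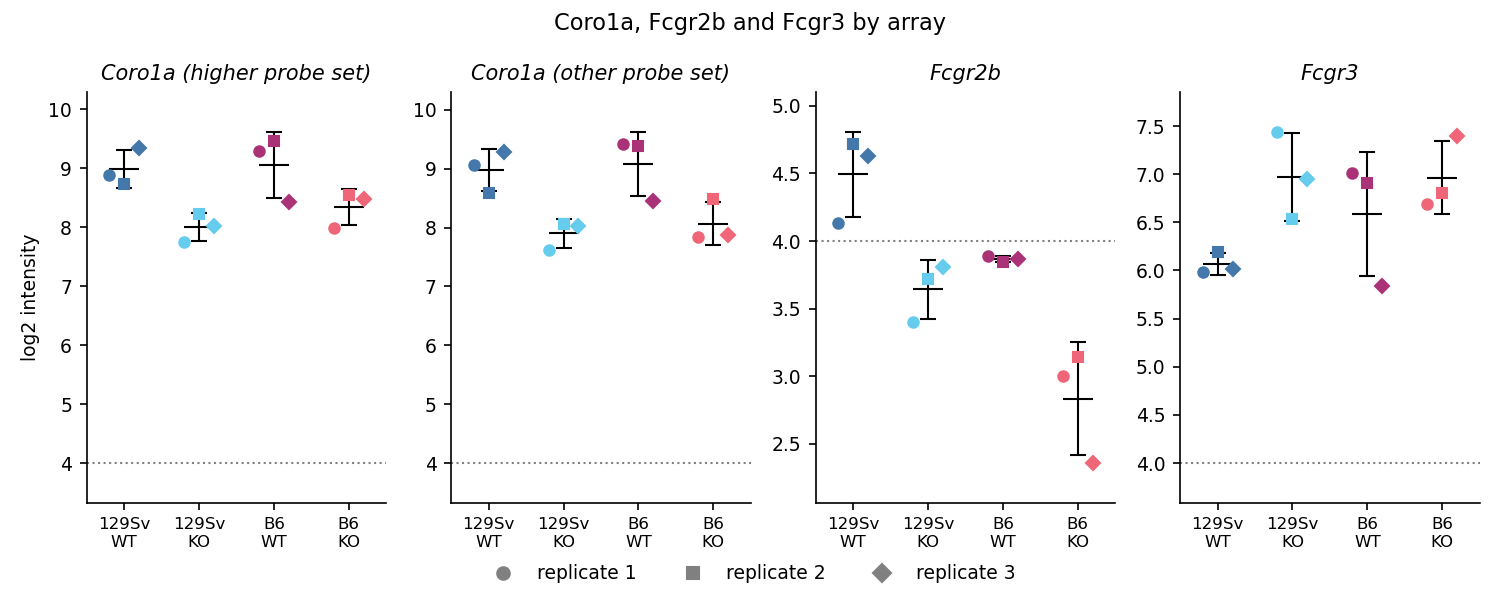
Log2 intensity of the 2 Coro1a probe sets above the filter, of Fcgr2b and of Fcgr3 on each array by group (WT wild type, KO knockout); bars are the mean and SD of 3 arrays and the dotted line is a log2 value of 4, an intensity of 16. Coro1a is lower in 129Sv knockouts in both probe sets, and Fcgr2b exceeds the line on the 129Sv wild-type arrays alone.

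The knockout counts also changed with the array left out, again without the share of all genes called in the same fits. Of the 2 calls in 129Sv, 0 were left when replicate 1 or 3 of either 129Sv group was dropped, and 1 when replicate 2 of either 129Sv group, B6 wild-type replicate 1 or 2 or B6 knockout replicate 1 was. The 1 call in B6 became 0 without any one 129Sv wild type, since Fcgr2b then misses the filter, and without B6 wild-type replicate 2, and became 3 without B6 knockout replicate 1. Titles of the 129Sv knockouts and of 129Sv wild-type replicate 2 share the number 7 ahead of the strain, in place of 11 in the remaining 129Sv wild types. With that number as a covariate 0 passed in 129Sv. The difference between the knockout effects of the strains passed for 0 of 21 genes in limma, against 1.12% of all genes higher and 0.196% lower. Laptm5 alone was lower at an unadjusted p under 0.05, for which no share of all genes is given.

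The neutrophil granule genes went the other way between the wild-type strains. All 8 passed the filter, and 5 of them, Ngp, Camp, Lcn2, Ltf and S100a9, were higher in 129Sv wild type than in B6 wild type, where 10.9% of all genes were. The median difference was 2.06 on the log2 scale against 0.063 over all genes, and all 8 were positive. The groups did not overlap for 4 of the 8, Ngp, Camp, Lcn2 and Ltf, against 26.6% of all genes. In the fit of all probe sets the same 4 were higher, against 8.97% of all probe sets. Between the knockout strains limma called 0 of 8, where 20.3% of all genes were higher and 13.8% lower, with a median of -0.27 against 0.028 over all genes. Lcn2 alone was lower at an unadjusted p under 0.05, for which no share of all genes is given.

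Of the 5 called genes, 4 are secondary granule genes. Ngp, which encodes neutrophilic granule protein, read 164, 454 and 393 in 129Sv wild type, 113, 236 and 66.4 in 129Sv knockout, 97.4, 9.79 and 9.39 in B6 wild type and 30.7, 218 and 643 in B6 knockout. B6 wild-type replicates 2 and 3 were under 16, while replicate 1 and all other arrays were above it. With those arrays set to 16, Ngp was at least 10.6-fold higher in 129Sv wild type. The fitted difference was 3.89 ± 0.97 (adjusted p = 0.014) and ran from 3.32 to 5.01 with 1 array left out at a time. In the limma fit with all values under 16 set to 16, none of the 8 granule genes passed (Ngp 3.40, adjusted p = 0.119). Camp, which encodes the antimicrobial peptide cathelicidin, read 156, 459 and 547 in 129Sv wild type, 203, 435 and 276 in 129Sv knockout, 135, 21.8 and 19.6 in B6 wild type and 50.5, 468 and 1085 in B6 knockout and was 8.80-fold higher (3.14 ± 0.91, adjusted p = 0.0297). Lcn2, which encodes a protein that binds bacterial iron carriers, read 103, 232 and 272 in 129Sv wild type, 68.9, 127 and 38.5 in 129Sv knockout, 70.3, 17.8 and 29.5 in B6 wild type and 65.4, 255 and 393 in B6 knockout and was 5.59-fold higher (2.48 ± 0.63, adjusted p = 0.0153). Ltf, the lactoferrin gene, read 29.00, 78.1 and 44.9 in 129Sv wild type, 31.7, 23.1 and 12.6 in 129Sv knockout, 18.4, 8.83 and 8.49 in B6 wild type and 12.6, 56.8 and 72.2 in B6 knockout and was at least 2.78-fold higher, with B6 replicates 2 and 3 set to 16 (2.07 ± 0.57, adjusted p = 0.0227). In each of these 4 genes the lowest 129Sv wild type was replicate 1 and the highest B6 wild type was replicate 1, and those arrays lay nearest to each other.

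The cytosolic pair was high on every array. S100a9 read 5140.2, 7648 and 8863 in 129Sv wild type, 3861, 5892 and 3992 in 129Sv knockout, 5264, 2292 and 1119 in B6 wild type and 2544, 7178 and 9209 in B6 knockout. It was 2.96-fold higher in 129Sv wild type (1.56 ± 0.48, adjusted p = 0.0382), although B6 wild-type replicate 1 exceeded 129Sv replicate 1. S100a8, its partner in the calprotectin complex, read 1557, 2157 and 2563 in 129Sv wild type, 1111, 2092 and 1269.5 in 129Sv knockout, 1968, 1005 and 307 in B6 wild type and 539, 2159 and 4270.3 in B6 knockout and did not pass (1.28 ± 0.65, adjusted p = 0.2). The azurophilic pair shared the array order of the other 6 granule genes in B6 knockout but not in 129Sv wild type. Mpo, the myeloperoxidase gene, read 171, 41.03 and 349 in 129Sv wild type, 43.8, 163 and 33.9 in 129Sv knockout, 114, 85.3 and 3.49 in B6 wild type and 4.18, 17.8 and 68.03 in B6 knockout. Elane, the neutrophil elastase gene, read 27.97, 7.90 and 40.04 in 129Sv wild type, 19.2, 19.1 and 10.48 in 129Sv knockout, 19.9, 17.98 and 4.42 in B6 wild type and 4.01, 7.66 and 31.6 in B6 knockout. In 129Sv wild type both were lowest in replicate 2, whereas the other 6 granule genes were lowest in replicate 1. Neither passed in any comparison, with wild-type differences of 2.06 ± 1.21 and 0.83 ± 0.73.

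**Figure D4:**
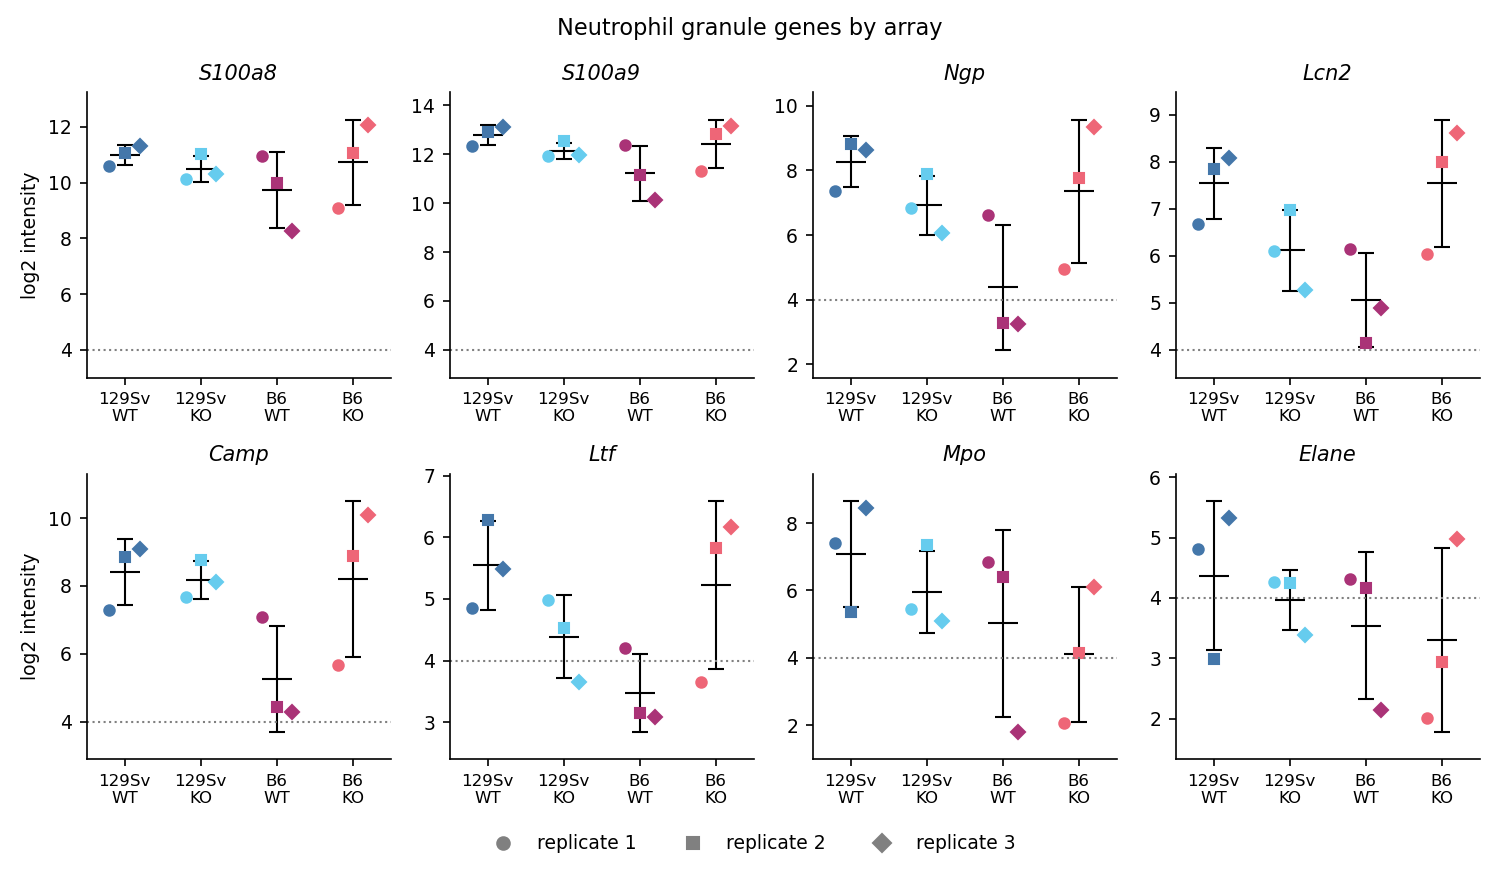
Log2 intensity of the 8 neutrophil granule genes on each array by group (WT wild type, KO knockout); symbols mark replicates, bars are the mean and SD of 3 arrays and the dotted line is a log2 value of 4, an intensity of 16. In B6 knockout all 8 genes are lowest in replicate 1 and highest in replicate 3.

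Within the groups the granule genes varied widely, and in B6 most of them put the arrays in 1 order. B6 wild-type replicate 1 was the highest of its group for 8 of 8 genes and replicate 3 the lowest for 7 of 8. B6 knockout replicate 3 was the highest for 8 of 8 and replicate 1 the lowest for 8 of 8. In 129Sv the order was less regular. In wild type replicate 3 was the highest and replicate 1 the lowest for 6 of 8 each, and in knockout the lowest array was replicate 1 for 3 genes and replicate 3 for 5. For all genes, an array was the lowest of its group for 25.1% to 47.1%. The pooled SD within groups had a median of 1.12 on the log2 scale, against 0.209 over all genes, and was 1.99 for Mpo. B6 knockout replicate 1 read 50.5 for Camp and replicate 3 read 1085, so that for this gene arrays of 1 group differed more than the means of the wild-type strains.

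Against Dmrt1 genotype, 1 granule gene passed. In B6 knockout Lcn2 rose 5.62-fold (2.49 ± 0.63, adjusted p = 0.0252), 1 of 8 where 2.45% of all genes rose, with overlapping groups because replicate 1 at 65.4 lay within the wild types. Ngp (2.97 ± 0.97, adjusted p = 0.0766), Camp (2.93 ± 0.91, adjusted p = 0.0634), Ltf (1.74 ± 0.57, adjusted p = 0.0756) and S100a9 (1.21 ± 0.48, adjusted p = 0.137) had positive differences that did not pass, and the median of the 8 was 1.48 against 0.032 over all genes. In 129Sv all 8 differences were negative, with a median of -0.88 against -0.0062, and limma called 0. Lcn2 alone was lower at an unadjusted p under 0.05, again without a share of all genes at that p. The knockout effects differed between the strains for Lcn2 by -3.91 ± 0.89 (129Sv minus B6, adjusted p = 0.0455), 1 of 8 against 0.196% of all genes. In the fit of all probe sets this difference did not pass (adjusted p = 0.086).

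The granule counts changed with single arrays left out too, and the share of all genes called in those fits is not given. The 5 calls between wild types became 0 without 129Sv wild-type replicate 2 or B6 wild-type replicate 2, and 1 without 129Sv or B6 wild-type replicate 3. The 1 call in B6 knockout became 0 without B6 wild-type replicate 2 or 3 or B6 knockout replicate 2 or 3, 4 without B6 wild-type replicate 1, and 6 without B6 knockout replicate 1. The difference between knockout effects ended without any one 129Sv array or without B6 replicate 2 or 3 of either genotype. It held for 2 genes without B6 wild-type replicate 1 and for 5 without B6 knockout replicate 1. Without the latter array 2 genes were also lower in 129Sv knockouts than in B6 knockouts. The directions of Ngp, Camp, Lcn2, Ltf and S100a9 between wild types were the same with each array left out.

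Other genes of these cells gave a mixed picture. Over all genes limma called 13.8% lower and 20.3% higher in 129Sv in the knockout comparison, and 5.19% lower and 10.9% higher in the wild-type comparison. Of knockout against wild type it called 4.24% of all genes lower in 129Sv and 5.45% lower in B6. The lists hold few tested genes. Of 9 tested genes of tissue macrophages outside the members, 4 were lower in 129Sv knockouts than in B6 knockouts, namely Ms4a7 (at least 2.54-fold), Fcrls (at least 2.34-fold), Adgre1, which encodes the macrophage antigen F4/80 (1.89-fold), and Stab1, a scavenger receptor gene (1.79-fold). In wild type Ms4a7 was lower in 129Sv (at least 1.62-fold), and Irf8, a transcription factor gene of monocytes and dendritic cells (2.73-fold), and Cd86, a costimulatory ligand gene of antigen-presenting cells (at least 2.24-fold), were higher. Of 5 chemokine and receptor genes, Ccr2, the receptor of inflammatory monocytes, was lower in 129Sv in wild type (at least 2.12-fold) and in knockout (at least 1.22-fold), Cxcl12 was lower in 129Sv knockouts (1.42-fold) and Cx3cl1, the ligand of CX3CR1, was higher in 129Sv wild type (1.93-fold). Of 3 growth factor and receptor genes, Csf2rb was lower in 129Sv knockouts (1.80-fold). Of 5 complement genes besides C1q, C5ar1 (3.55-fold), C2 (1.77-fold) and C3ar1 (at least 1.34-fold) were lower in 129Sv knockouts, C5ar1 also in wild type (3.29-fold), and C1s1 fell in 129Sv knockout (2.68-fold). Of 4 other neutrophil genes, Chil3, a chitinase-like gene of neutrophils and macrophages, was higher in 129Sv wild type (at least 1.74-fold). The mean of Chil3 lay under 16 in every other group, so a higher value in 129Sv wild type was partly built into the filter. Mmp9, a gelatinase gene, fell in B6 knockout (at least 2.14-fold) and was higher in 129Sv than in B6 knockouts (at least 3.22-fold).

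Cd86, H2-Aa and 3 lymphoid genes were lower in the knockouts of both strains, Cd86 in B6 only at low signal. Over all genes limma called 4.24% lower in 129Sv knockout and 5.45% lower in B6 knockout. Cd86 fell in both strains, at least 2.36-fold in 129Sv (log2 difference -1.73 ± 0.24, adjusted p = 0.000324) and at least 1.04-fold in B6 (-1.11 ± 0.24, adjusted p = 0.0108). H2-Aa, which encodes a chain of an MHC class II molecule, fell 4.03-fold in 129Sv (-2.01 ± 0.25, adjusted p = 0.000119) and at least 2.35-fold in B6 (-1.28 ± 0.25, adjusted p = 0.00529), while H2-Ab1, H2-Eb1 and Cd74 of the same list of 4 tested genes did not pass in either strain. Of 12 lymphoid genes 11 were on the array and 4 passed the filter, and 3 of these fell in both strains, namely Cd2 (5.55-fold and at least 4.14-fold), Gzma (9.77-fold and at least 5.93-fold) and Dntt (at least 10.3-fold and at least 2.61-fold). Coro1a, the member that fell, and Fcgr2b are also expressed in lymphocytes. Cd79b, a B cell receptor gene and the remaining one of the 4, differed by 0.78 ± 0.25 (adjusted p = 0.0723) and 0.04 ± 0.25 (adjusted p = 0.928). The mean log2 level of the 4 lymphoid genes was 6.58 to 6.92 in 129Sv wild types, 3.97 to 5.06 in 129Sv knockouts, 4.98 to 6.38 in B6 wild types and 3.02 to 3.90 in B6 knockouts. Ptprc, the pan-leukocyte gene, differed between knockout and wild type by -0.14 ± 0.53 in 129Sv (adjusted p = 0.924) and 0.94 ± 0.53 in B6 (adjusted p = 0.287). The part of lymphoid cells in the values of Coro1a and Fcgr2b was not tested.

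**Figure D5:**
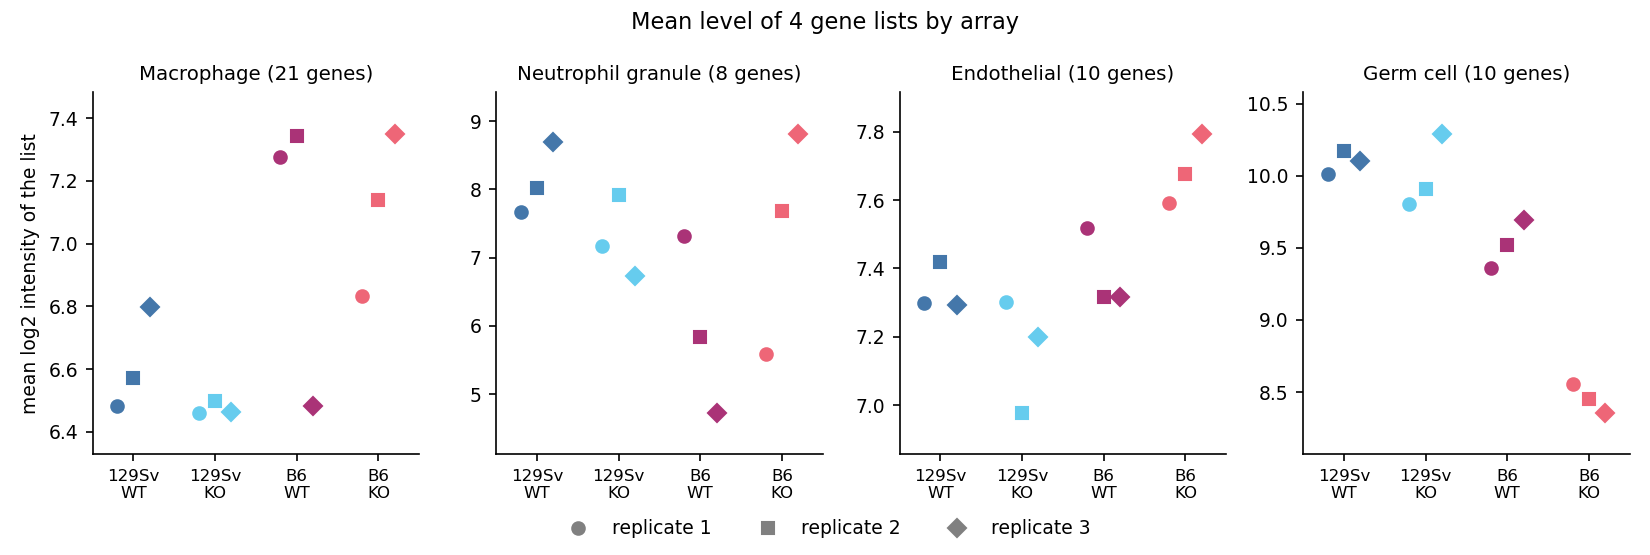
Mean log2 intensity of 4 gene lists on each array by group (WT wild type, KO knockout); symbols mark replicates. The macrophage list of B6 wild-type replicate 3 lies among the 129Sv arrays, and the germ cell list is lowest in B6 knockouts.

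Genes of other testis cells also differed between the strains. Between the knockout strains 6 of 10 endothelial genes and 3 of 5 fetal Leydig cell genes were lower in 129Sv, and 10 of 10 germ cell genes were higher, where limma called 13.8% of all genes lower and 20.3% higher. In the same comparison 4 of 12 Sertoli cell genes were lower (median -0.11) and 2 of 9 interstitial and peritubular genes were (median -0.13), and 0 of either list were higher. The mean log2 level of the endothelial list was 6.98 to 7.30 in 129Sv knockouts and 7.59 to 7.79 in B6 knockouts, against 7.29 to 7.42 and 7.32 to 7.52 in the wild types. That of the germ cell list was 9.80 to 10.29 in 129Sv knockouts and 8.36 to 8.56 in B6 knockouts, against 10.01 to 10.17 and 9.36 to 9.70 in the wild types. For the macrophage list it was 6.46 to 6.50 in 129Sv knockouts and 6.83 to 7.35 in B6 knockouts, against 6.48 to 6.798 and 6.48 to 7.34 in the wild types. How far the other cells' shares set the macrophage values was not tested. Of 3 red blood cell genes, Alas2, the first enzyme of heme synthesis in red cells, was lower in 129Sv knockouts (2.11-fold), and of 3 mast cell genes Tpsb2 was. Between the wild types, where the granule genes were higher in 129Sv, the 3 red blood cell genes differed by -0.44 to -0.13 and did not pass. The part of blood in the granule values was not tested.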

How the data were processed

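Total RNA of 12 testis samples was labelled and hybridised to Affymetrix arrays. The deposited values are intensities, 1 per probe set and array, that the authors summarised with GCRMA, per the submitters' processing notes. Version and settings are not stated. The design had assumed log2 values; the table held linear intensities, so log2 was taken here and the test was kept. Arrays have no read depth, and their number, 3 a group, limits the precision. Platform annotation gave 1 gene for 34958 probe sets, several for 932 and none for 9211, and symbols were updated by Entrez identifier through RefSeq (GRCm38.p6). Of the named probe sets, 13 were array controls and were left out. The probe set with the highest mean represented a gene. A gene was tested (12726 of 18193) if 3 or more arrays had a log2 value of 4 or above. For folds, arrays of the lower group under 4 were set to 4, and the fold is then given as "at least".

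With limma 3.58.1 under R 4.3.3, group means were modelled over all 12 arrays (lmFit, eBayes with trend, 8 residual and 6.71 prior degrees of freedom). Benjamini-Hochberg adjustment ran over every gene tested, and 0.05 was the threshold. The fit was tested on simulated data. Figures and motif searches used Python 3.11.15 and matplotlib 3.10.9. Members and lists were chosen with earlier results of these data known. Each member is accounted for; arrays are given singly for members past the threshold, for defining macrophage genes and for granule genes, and for Fcgr3, which was added after its values were seen. Other genes named are up to 6 a list and comparison, largest difference first, among those past the threshold. Alternatives were other filters, probe set rules, scalings, a floor at log2 of 4, no trend, array weights, only the groups compared, replicate and title numbers, the Actb ratio and each array left out. Leaving out the 2 arrays of the highest Actb ratio was chosen after seeing the data.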

Additional observations from a re-analysis of the deposited data

Results flagged for a closer look

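The knockout effect on Lcn2, the lipocalin gene of neutrophil granules, differed between the strains in the fit of genes. In the fit of all probe sets the same probe set did not pass (adjusted p = 0.086). The test of the difference itself, the interaction of strain and genotype in limma, gave -3.9125 ± 0.89 on the log2 scale (129Sv minus B6, adjusted p = 0.0455, n = 3 arrays a group). The knockout difference was -1.42 ± 0.63 in 129Sv and 2.49 ± 0.63 in B6. The call held in 7 of 25 alternatives, with adjusted p-values from 0.0047 to 0.212, and the direction was the same in each of them. Among the 12 fits that left out 1 array it held in 2.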

How the results depend on the processing

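Over 462 alternative values of list counts and medians, 359 stayed within 1.5 times the count or within the spread and 103 moved. Where 0 genes were called, an alternative that also called 0 is among the 359, so that total is no measure of stability. The macrophage median took the other sign in 9 of 154 alternatives, among them B6 knockout (0.096 to -0.17), the difference of effects (-0.22 to 0.077) and the average (0.051 to -0.15), each without B6 wild-type replicate 3; the other 6 concern the average, which then lay between -0.040 and -0.0069. Counts of called genes moved as follows, where the cause was not tested unless stated. The share of all genes called in each alternative is not given, so the moves are not particular to the members. For macrophage genes in 129Sv knockout (2 called), 1 passed with a filter at log2 of 6, the mean of probe sets, quantile normalization or median centring, and 0 with a floor at 4, the title number before the strain code as a covariate, or without both arrays of high Actb ratio. In B6 knockout (1 called), 0 passed with the filter at 6, the mean of probe sets, the floor at 4, only the groups compared or the Actb ratio as a covariate. For the average (2 called), 1 passed with the filter at 6, the mean of probe sets, the floor or the title number. Fcgr2b lies under the filter at 6 and under the floor in B6, where it has no difference left. Between wild types (0 called), 2 macrophage genes passed with quantile normalization, 1 with the floor, 2 with array weights, 3 with only the groups compared, 2 with the Actb ratio as a covariate and 4 without both arrays of high Actb ratio. Between knockouts (11 called), 7 passed with the mean of probe sets, median centring or only the groups compared, 3 with the floor and 3 without both arrays of high Actb ratio. For the difference of knockout effects (0 called) array weights gave 1.

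For granule genes, array weights gave 1 in 129Sv knockout (0 called), 5 in B6 knockout (1 called), 4 for the difference of effects (1 called), 8 between wild types (5 called) and 1 between knockouts (0 called). The B6 knockout call became 0 with the floor, only the groups compared, the Actb ratio as a covariate or without both arrays of high ratio. The difference of effects became 0 with no filter, the mean of probe sets, the floor, no trend, the title number, the Actb ratio or without both arrays of high ratio. Between wild types 3 passed with the mean of probe sets, no trend or the Actb ratio, 1 with the title number and 0 with the floor.

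Leaving out 1 array at a time gave, for macrophage genes, 0 to 3 calls in 129Sv knockout, 0 to 3 in B6 knockout, 1 to 3 for the average, 0 to 9 between wild types and 4 to 12 between knockouts, and for granule genes 0 to 6 in B6 knockout, 0 to 5 for the difference of effects, 0 to 1 for the average, 0 to 5 between wild types and 0 to 2 between knockouts. After group means were removed, same-numbered arrays of wild type and knockout correlated at -0.14, -0.466 and -0.086 in 129Sv. In B6 they correlated at 0.008, 0.003 and -0.039, and the replicate numbers were not taken as pairs. B6 wild type and knockout of replicate 1 share the first number of their titles, as do those of replicate 2. That number entered only as a random block in an alternative. With the replicate number as a block, 1 macrophage gene passed in 129Sv knockout and 0 granule genes for the difference of effects. Low signal limits Fcgr2b, Ltf and Elane and keeps Spi1, Itgam, Itgb2, Cd14 and Cd48 out of all tests. Outside the members it also limits Chil3 and, in B6, Cd86.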
